A study of Bos taurus with 8 samples.

Results

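The genes described here encode molecular chaperones: the heat shock protein families Hsp110, Hsp90, Hsp70 and the small heat shock proteins, their J-protein partners (DNAJ genes), the chaperonins, and the disulphide isomerases and lectin chaperones of the endoplasmic reticulum (ER). They were chosen by their symbol in the array's annotation, by a rule that did not use the ratios but was set with earlier results of these data known. The symbols matched 121 probes of 81 genes, and each gene was read by its brightest probe. A mean log2 intensity of 7 or more was reached by 76 of the 81 genes, among 13082 genes measured in all. Of these 76 members, 17 encode proteins of the ER, 50 proteins of the cytosol and nucleus, and 9 mitochondrial proteins. DNAJC5B, DNAJC5G, HSPA6, HSPB3 and PDIA2 were too dim. The dimmest member kept was DNAJB8, at 7.13, and the brightest gene left out was PDIA2, at 6.99. CANX (calnexin) and DNAJA1 had no probe under that symbol and were not analysed here.

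Granulosa cells form the inner lining of the follicle and make its oestradiol. They were scraped from the wall of dominant follicles wider than 9 mm in slaughterhouse ovaries of Holstein cattle, and their RNA was amplified before labelling. Atretic follicles, which regress, were compared with plateau follicles, whose growth has slowed; flow cytometry of DNA content had set the phase of each follicle, with no treatment in either group. Each of 8 two-colour arrays held RNA of an atretic and of a plateau follicle. The 4 arrays of slide 205 had Cy5 on the atretic side, and the 4 of slide 206 had the dyes swapped. The reproductive state of the cows was unknown. Nothing ties the follicles to separate cows, so the tests measure the spread between these follicles.

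Chaperones bind unfolded or partly folded proteins. Hsp70 proteins do so in cycles of ATP hydrolysis that J proteins start and nucleotide exchange factors such as Hsp110 reset, while Hsp90 acts late on selected clients and the chaperonins enclose a protein in a chamber. In the ER, where secreted and membrane proteins fold, BiP (HSPA5) and GRP94 (HSP90B1) work beside disulphide isomerases and the lectin chaperones calreticulin and calnexin, and most of these genes are targets of the unfolded protein response. Many cytosolic members are targets of heat shock factor. Granulosa cells secrete peptide hormones such as the inhibins, which pass through the ER.

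Log ratios were turned to atretic over plateau, and arrays of equal Area number on the 2 slides were averaged, which gave 4 pairs of follicles. With the mean of each probe over its slide subtracted, those arrays correlated at 0.759 to 0.865, against -0.487 to -0.0312 for unequal numbers. The subtraction itself pushes the correlations of unequal numbers below 0. Without it, the averaged ratios of the 4 pairs correlated with each other at 0.0447 to 0.201, which is not on the same scale. The follicles of a pair are partners in having shared arrays, and no animal or trait is known to match them. Their levels were read from the same spots. Highs or lows common to both partners therefore cannot be told apart from an array effect. The plateau follicle of pair 3 stood apart: 9 stroma markers, among them the collagen genes COL1A2 and COL3A1, summed to an intensity of 4701 to 8778 in atretic follicles, against 164100 in this plateau follicle and 2206 to 7201 in the other plateau follicles. The 11 granulosa markers, among them aromatase (CYP19A1), summed to 135400 to 251800 in atretic follicles, against 18270 in this plateau follicle and 63810 to 259300 in the others. INHA and INHBA, the brightest of these markers, had 8 saturated spots each. CYP19A1 read 7.52 in this plateau follicle, 7.20 in that of pair 2, and 15.0 and 15.8 in those of pairs 1 and 4. GATM ran the other way, at 6.86, 12.48, 11.20 and 7.35 in the plateau follicles of pairs 1 to 4. In every other follicle the granulosa markers summed higher than the stroma markers, and none of either list was below the negative controls throughout. Values without pair 3 are therefore given beside many of the results that it moves, though not beside every gene. The atretic follicle of pair 1 was high in some theca markers, though not in all 5. CYP17A1 read 9.41 there, against 7.02 to 7.53 in the other atretic and 7.08 to 8.41 in the plateau follicles. The 5 theca markers summed to 37190, against 4788 to 14710 in the other atretic and 3698 to 26390 in the plateau follicles. The authors left an atretic sample high in CYP17A1 out of their PCR analysis, and the labels do not identify it. In bulk RNA, fewer cells of a type and less RNA per cell cannot be told apart.

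A gene was counted as lower or higher at a fold of 1.5 with an unadjusted p under 0.05 in limma's moderated test over the 4 pairs. Of the 76 members, 3 were lower in atretic follicles, which is 3.95%, against 2.96% of all genes, and 1 was higher, which is 1.32%, against 2.42% of all genes. All 3 that fell belong to the ER: calreticulin (CALR), the J protein ERdj3 (DNAJB11) and the disulphide isomerase ERp57 (PDIA3). The 1 that rose was DNAJC24, a cytosolic J protein. Adjusted p under 0.05 was reached by 0 members and by 0% of all genes in limma, where 6 members (7.89%) had an unadjusted p under 0.05, against 9.19% of all genes. In these counts the members' shares were near those of all genes. With the 8 arrays kept apart and the pair as a replicate block, 6 members were lower (7.89%, against 4.76% of all genes) and 2 higher (2.63%, against 4.3%). In that fit 10 members (13.2%) had an unadjusted p under 0.05, against 15% of all genes, and 0 an adjusted p under 0.05, against 2.21% of all genes. Without pair 3, 1 member was lower, where 2.66% of all genes were, and 1 higher, where 2.01% were. When the follicles were compared unpaired, HSPH1 was the 1 member lower (1.7% of all genes) and DNAJC24 the 1 higher (1.58%), and the 3 ER calls were lost. The 3 ER calls were also lost without pair 1.

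The log ratio was below 0 in all 4 pairs for 9 members (11.8%, against 8.58% of all genes) and above 0 in all 4 for 2 members (2.63%, against 7.93%). Levels of the 4 atretic and the 4 plateau follicles overlapped for each of the 76 members, so 0 were fully apart, whereas 1.28% of all genes lay wholly lower and 1.35% wholly higher in atretic follicles. The median log2 ratio was -0.09 over all members, against -0.0019 over all genes. It was -0.14 over the ER members, -0.09 over the cytosolic and nuclear ones and 0.18 over the mitochondrial ones. By pair, the mitochondrial medians were -0.07, 0.23, -0.15 and -0.06 in pairs 1 to 4. The value of 0.18 is therefore not a rise shared by the pairs. Within the ER a core list of 9 chaperones (CALR, DNAJB11, HSP90B1, PDIA3, HSPA5, PDIA6, PDIA4, DNAJC3 and DNAJB9) had a median of -0.40, and all 9 means were below 0. This list was drawn up with earlier results of these data known, so its direction is a description. The other 8 ER members had a median of 0.08, with 2 means below 0, and they include the lumenal proteins PDIA5 (0.14) and DNAJC10 (0.10). The 9 core genes had medians of -0.57, 0.01, -0.65 and -0.52 in pairs 1 to 4, so pair 2 did not share the lower level. Their median was -0.71 without pair 2, -0.29 without pair 3 and -0.26 without pair 4.

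**Figure D1:**
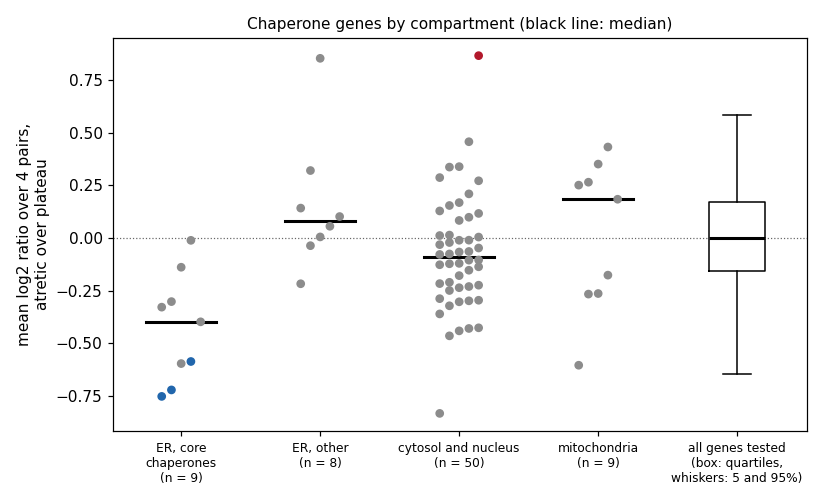
Mean log2 ratio (atretic over plateau, 4 pairs) of each of the 76 members by compartment, with black lines at the medians and a box for all 13082 genes. The 9 core chaperones of the ER lie below 0 with a median of -0.40, the other 8 ER members have a median of 0.08, and the coloured points are the 3 members that were lower (blue) and the 1 that was higher (red).

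Calreticulin (CALR), a calcium-binding lectin chaperone for glycoproteins, had log2 intensities of 13.19, 12.27, 11.65 and 11.92 in the atretic follicles of pairs 1 to 4, against 13.75, 12.29, 13.33 and 12.65 in their plateau partners. The ranges overlapped, and within pairs the atretic follicle was lower by little in pair 2 and by most in pair 3. The log2 ratios were -0.57, -0.02, -1.68 and -0.74, a mean of -0.75 ± 0.69 (SD, n = 4; adjusted p = 0.656). CALR was lower on 7 of 8 arrays. The 8 arrays are the 4 pairs read with both dye orientations, so counts of arrays, here and below, are not counts of replicates. The call was lost when pair 1 (-0.81), pair 3 (-0.44) or pair 4 (-0.76) was left out.

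ERp57 (PDIA3) is the disulphide isomerase that calreticulin and calnexin recruit. It read 12.29, 10.74, 10.76 and 11.61 in atretic follicles, against 13.08, 10.96, 11.28 and 12.43 in plateau follicles. Both follicles of pair 1 were high and both of pair 2 low, so the groups overlapped, while each atretic follicle was below its partner. The log2 ratios were -0.79, -0.22, -0.52 and -0.82, a mean of -0.59 ± 0.28 (SD, n = 4; adjusted p = 0.440), with all 8 arrays lower. PDIA3 kept its call without pair 3 (-0.61) and missed it without pair 1 (-0.52) or pair 4 (-0.51), where its mean was below a fold of 1.5. Another pair of isomerases was below 0 in 3 of 4 pairs. PDIA6 (P5) had log2 ratios of -0.22, 0.03, -0.60 and -0.52 (mean -0.33 ± 0.29), and PDIA4 (ERp72) of -0.43, 0.01, -0.33 and -0.46 (mean -0.30 ± 0.22), with adjusted p = 0.719 and 0.712 in limma. The 95% intervals of the mean ran from -0.70 to 0.04 for PDIA6 and from -0.63 to 0.02 for PDIA4. One PDIA6 spot was saturated. PDIA5 was not lower in atretic follicles on average, at 0.14 ± 1.09, and was above the threshold without pair 1 (0.66).

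ERdj3 (DNAJB11), a J protein that binds unfolded chains in the lumen and hands them to BiP, read 12.04, 10.82, 11.37 and 11.53 in atretic follicles, against 12.75, 11.21, 12.81 and 11.86 in plateau follicles. Each atretic follicle was below its partner, and the groups overlapped. The log2 ratios were -0.72, -0.40, -1.44 and -0.33, a mean of -0.72 ± 0.51 (SD, n = 4; adjusted p = 0.564), and all 8 arrays were lower. The call was lost without pair 1 (-0.72) or pair 3 (-0.48).

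BiP (HSPA5), the Hsp70 of the ER and the usual reporter of the unfolded protein response, did not pass the threshold. Its levels were 13.48, 12.24, 11.88 and 12.57 in atretic follicles, against 13.84, 11.08, 13.17 and 13.67 in plateau follicles. The atretic follicle was the lower one in pairs 1, 3 and 4 and clearly the higher one in pair 2, with log2 ratios of -0.36, 1.16, -1.30 and -1.10. The mean was -0.40 ± 1.12 (adjusted p = 0.891), with a 95% interval from -1.48 to 0.69. GRP94 (HSP90B1), the Hsp90 of the ER, showed the same split. It read 12.35, 11.30, 11.64 and 12.25 in atretic follicles, against 13.17, 10.95, 12.82 and 12.98 in plateau follicles. The log2 ratios were -0.83, 0.35, -1.17 and -0.73, with a mean of -0.60 ± 0.66 (adjusted p = 0.719), and a dimmer probe of the gene averaged -0.16. Without pair 2 both genes passed the threshold, HSPA5 at -0.92 and HSP90B1 at -0.91, whereas without pair 3 they were at -0.10 and -0.40 and did not. HSP90B1 also passed in the fit that kept the pair as a replicate block, at an adjusted p = 0.261 in limma.

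The other J proteins of the core list had no single direction over the pairs. DNAJC3 (p58IPK), which also acts with BiP, had log2 ratios of -1.33, 0.98, -0.42 and 0.21 (mean -0.14 ± 0.98). DNAJB9 (ERdj4) had 0.25, -0.05, -0.65 and 0.41 (mean -0.01 ± 0.47).

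**Figure D2:**
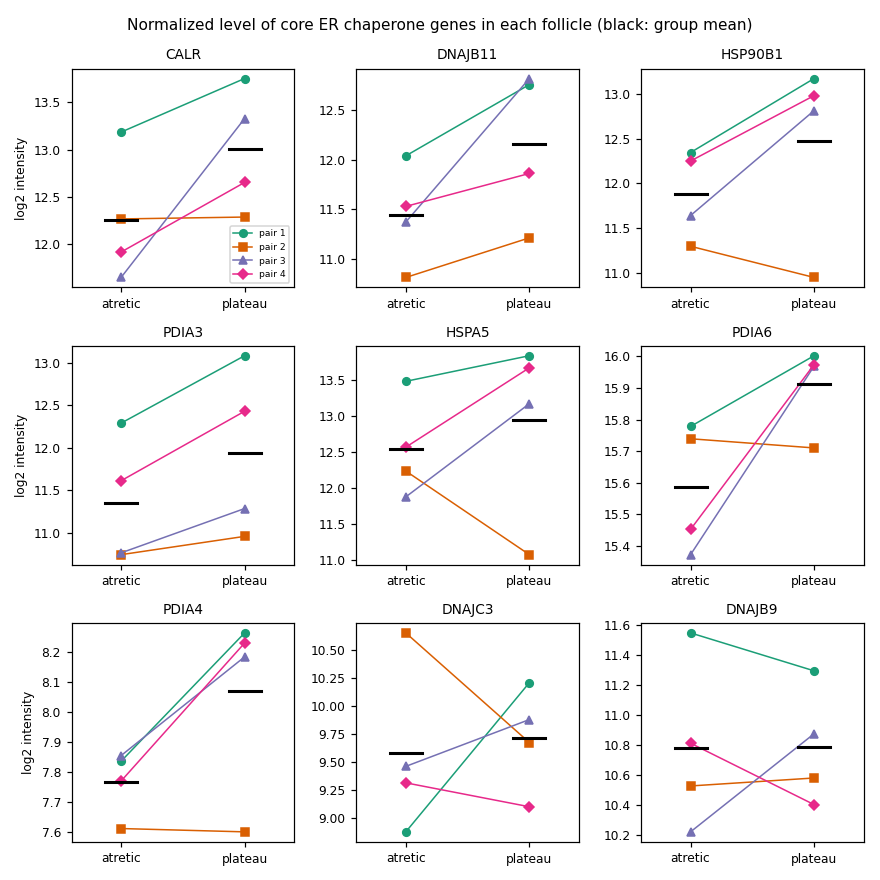
Normalized log2 intensity of the 9 core ER chaperone genes in each follicle, atretic at the left and plateau at the right of each panel, with lines joining the follicles of a pair and black bars at the group means. In pairs 1, 3 and 4 the lines of the first 7 genes climb towards the plateau follicle, while in pair 2 HSPA5 is higher in the atretic one by 1.16.

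The exception of pair 2 can be read from the follicles one by one. The plateau follicle of pair 2 lay below the mean of the other 3 plateau follicles for 9 of the 9 core genes and was the lowest of the 4 for 7 of them, with a median difference of -0.96 on the log2 scale. HSP90B1 read 10.95 there, against 12.82 to 13.17 in the other plateau follicles, and HSPA5 read 11.08. The low level was not particular to the ER. In the same follicle the 9 mitochondrial members had a median difference of -0.52, and 7 of them were the lowest of the 4. The 50 cytosolic and nuclear members were at -0.12. For the core genes the atretic follicle of that pair was itself low, with a median difference of -0.33 from the other atretic follicles and 6 of 9 genes below them. Both follicles of pair 1 were high, by 0.80 in the atretic and by 0.79 in the plateau follicle. Among plateau follicles these differences ran from -0.96 to 0.79. Each sets 1 follicle against the mean of 3, so they are not on the same scale as the median ratio of -0.40, which averages 4 pairs. Over all genes these differences lay between -0.03 and 0.01, but normalization holds that median near 0, so it gives no spread for a short list. The 11 granulosa markers, another short list, ran from -2.58 to 2.02 in plateau follicles.

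Genes for collagen folding in the ER, a list of 9 with the collagen chaperone SERPINH1 and the prolyl and lysyl hydroxylases, followed a like order of follicles. Their median difference in the plateau follicle of pair 2 was -1.45, with 8 of 9 genes below the other plateau follicles. Their median log2 ratios were -0.43, 0.28, -0.60 and -0.29 in pairs 1 to 4. At the threshold 0 were lower (2.96% of all genes were) and 0 higher (2.42%). SERPINH1 had -0.72, 0.26, -1.64 and -0.48. The 6 myeloid markers measured of 7, CD68 among them, summed to 1338 to 2969 in atretic follicles. In plateau follicles they summed to 1026, 5417, 8004 and 1894 in pairs 1 to 4. In the plateau follicle of pair 3, the highest, the core ER genes had a median difference of 0.22. The granulosa markers summed to 135400 in the atretic and 63810 in the plateau follicle of pair 2. The part of these cells in the levels was not tested.

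**Figure D3:**
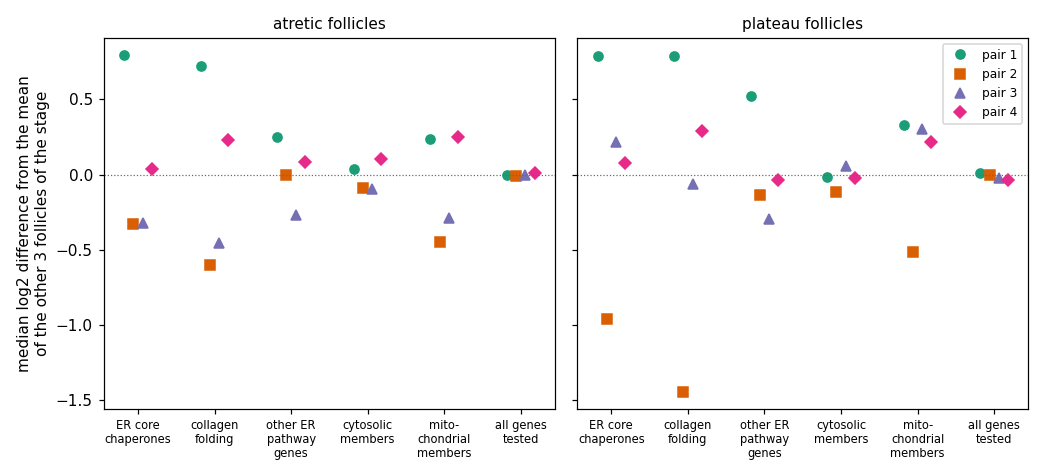
Median log2 difference of each follicle from the mean of the other 3 follicles of its stage, for the core ER chaperones, collagen folding genes, other ER pathway genes, cytosolic and mitochondrial members and all genes, with atretic follicles in the left panel and plateau follicles in the right. The plateau follicle of pair 2 is at -0.96 for the core chaperones, at -1.45 for collagen folding and at -0.52 for the mitochondrial members. Both follicles of pair 1 are high for the core chaperones.

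The other ER members had no common direction. DNAJC18, a J protein of the ER membrane, had the highest mean of the 17, 0.85 ± 1.14, with log2 ratios of 0.31, -0.20, 2.44 and 0.86, so that most of it came from pair 3, and 0.32 without that pair. It was not past the threshold (adjusted p = 0.759), but was in the replicate block fit (adjusted p = 0.323 in limma). DNAJC16 averaged 0.32, with 3 probes of the gene between 0.13 and 0.63. HSPA13, an Hsp70-like ATPase of microsomes, was at 0.06, and the membrane J proteins DNAJB12, DNAJB14 and DNAJC14 were at 0.0049, -0.04 and -0.22. Without pair 3 DNAJB12 averaged -0.37. DNAJC10 (ERdj5), a J protein of the lumen, which reduces disulphides during ER-associated degradation, was at 0.10.

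Of 53 further genes of the ER folding and unfolded protein response pathways, 52 were measured. In atretic follicles 0 were lower, against 2.96% of all genes, and 2 higher (3.85%, against 2.42%), with a median of 0.03 over the 52 and 25 means below 0. The sensors and transcription factors of the response did not pass. XBP1, the factor downstream of IRE1, was at -0.07 ± 0.42, ATF4 at -0.21 ± 0.67, DDIT3 (CHOP) at -0.34 ± 0.89, ERN1 (IRE1) at -0.10 ± 0.37 and EIF2AK3 (PERK) at 0.09 ± 0.52. Targets and folding factors of this list, named here after their values were seen, lay on both sides of 0 and did not pass. MANF averaged -0.68 with log2 ratios of -0.74, 0.40, -1.87 and -0.52. SDF2L1 averaged -0.65, with -2.15 in pair 3. CRELD2 averaged -0.52 and HYOU1, an Hsp110-type nucleotide exchange factor of BiP, -0.26. HERPUD1, a target of the response, averaged 1.23 with log2 ratios of -0.48, 0.28, 3.42 and 1.69, and SIL1, another exchange factor of BiP, 0.65. ERO1B averaged 0.53 and the prolyl isomerase PPIB 0.52. P4HB, the archetypal disulphide isomerase, was at -1.75, 1.12, -0.32 and -0.42.

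The 2 genes of that list that rose are ASNS and MBTPS1. Asparagine synthetase (ASNS), a target of ATF4, read 11.47, 13.36, 14.23 and 12.60 in atretic follicles, against 10.78, 11.91, 12.43 and 10.69 in plateau follicles. Each atretic follicle exceeded its partner, though the ranges overlapped. Its mean log2 ratio was 1.46 ± 0.55 (adjusted p = 0.190), and it stayed past the threshold whichever pair was left out. MBTPS1, the site-1 protease that cleaves ATF6, read 11.64, 12.53, 12.48 and 12.47 in atretic follicles, against 11.08, 11.48, 9.86 and 11.50 in plateau follicles. These 2 groups did not overlap. The mean was 1.30 ± 0.90 (adjusted p = 0.511), of which pair 3 gave 2.62, and 0.86 without that pair. Of the 52 genes, MBTPS1 was the 1 that lay wholly higher in atretic follicles, as 1.35% of all genes did. SEC63, with a mean of -0.23 and not past the threshold, was the 1 that lay wholly lower, as 1.28% of all genes did.

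Among the 50 cytosolic and nuclear members, 0 were lower, against 2.96% of all genes, and 1 was higher (2%, against 2.42%). Hsc70 (HSPA8), the constitutive Hsp70, read 15.24, 14.55, 15.05 and 15.30 in atretic follicles, against 15.82, 15.13, 15.57 and 15.48 in plateau follicles. Each atretic follicle was lower than its partner by a similar step except in pair 4, and the groups overlapped. The log2 ratios were -0.59, -0.58, -0.52 and -0.18, a mean of -0.46 ± 0.19 (adjusted p = 0.483), with all 8 arrays lower, which is a fold under 1.5. Hsp105 (HSPH1), a nucleotide exchange factor of Hsp70, had the lowest mean of all members, -0.83 ± 0.93. It read 10.24, 9.58, 9.02 and 10.32 in atretic follicles, against 10.26, 10.24, 11.18 and 10.81 in plateau follicles. The ratios were -0.02, -0.66, -2.17 and -0.48, so pair 3 gave the most and pair 1 almost nothing. HSPH1 did not pass (adjusted p = 0.719), but did without pair 1 (-1.10) and in the replicate block fit (adjusted p = 0.237 in limma). Without pair 3 its mean was -0.39.

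The stress-inducible Hsp70 genes HSPA1A and HSPA1B had log2 ratios of -0.40, 1.07, 0.40 and -0.39 and of -0.48, 1.20, 0.26 and -0.36. They are nearly identical copies whose probes may read both, and neither had one direction. HSPA4, another exchange factor, averaged 0.21 ± 0.60. The inducible Hsp90 gene HSP90AA1 averaged -0.30 ± 0.58 and the constitutive one, HSP90AB1, 0.27 ± 0.43. In pair 3 these genes were at -1.08 and 0.80, and without it they averaged -0.04 and 0.10. The co-chaperone genes in a list of 36, 34 of them measured, had a median of -0.06, with 1 lower (2.94%, against 2.96% of all genes) and 0 higher. The 1 was STIP1, which joins Hsp70 to Hsp90. It read 9.73, 9.37, 9.55 and 9.94 in atretic follicles, against 10.77, 9.85, 10.47 and 10.24 in plateau follicles. Each atretic follicle was below its partner, with a mean of -0.68 ± 0.35 (adjusted p = 0.425) and 8 of 8 arrays lower, and the call was lost without pair 1 (-0.57). HSF1, the heat shock factor itself, was at -0.01 ± 0.19.

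Of the 24 cytosolic and nuclear J proteins, DNAJC24 was the 1 that passed. It serves the synthesis of diphthamide, a modified residue of elongation factor 2. It read 8.39, 9.38, 9.32 and 8.46 in atretic follicles, against 7.29, 8.74, 7.88 and 8.17 in plateau follicles. Each atretic follicle was above its partner, and the groups overlapped. The log2 ratios were 1.10, 0.63, 1.44 and 0.29, a mean of 0.87 ± 0.51 (adjusted p = 0.440), and it was 0.67 without pair 3, still past the threshold. This probe was not above the negative controls on every array, and the other measured probe of the gene averaged 0.11. DNAJC8, a nuclear J protein of the spliceosome, was lower on all 8 arrays by a small step, -0.22 ± 0.16 (adjusted p = 0.759).

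TRiC, the cytosolic chaperonin that folds actin and tubulin, is a ring of related subunits. The subunit gene TCP1 carries a symbol outside the rule and averaged -0.20 ± 0.51. Of the 8 members measured, 0 were lower (2.96% of all genes were) and 0 higher (2.42%), and 6 means were below 0. So short a list can hold 0 calls at those shares. The range ran from -0.44 (CCT5) to 0.34 (CCT6B), with a median of -0.27. The subunit medians were -0.06, -0.50, -0.66 and 0.11 in pairs 1 to 4. CCT2 read 13.74, 12.74, 13.28 and 13.94 in atretic follicles, against 13.85, 13.84, 13.89 and 13.57 in plateau follicles. CCT5 had ratios of 0.49, -0.35, -1.18 and -0.72 and passed without pair 1 (-0.75), while its mean without pair 3 was -0.20. CCT4 and CCT6B were at 1.10 and 1.96 in pair 3, where CCT2, CCT3, CCT5, CCT6A, CCT7 and CCT8 were all below 0. Without pair 3 CCT4 averaged -0.20 and CCT6B -0.20. Of the 5 small heat shock proteins, HSPB1 averaged -0.43 ± 0.41 (log2 ratios -0.78, -0.30, -0.72 and 0.10), and its second probe -0.67. It passed the threshold without pair 4 (-0.60). The other small members were dim.

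**Figure D4:**
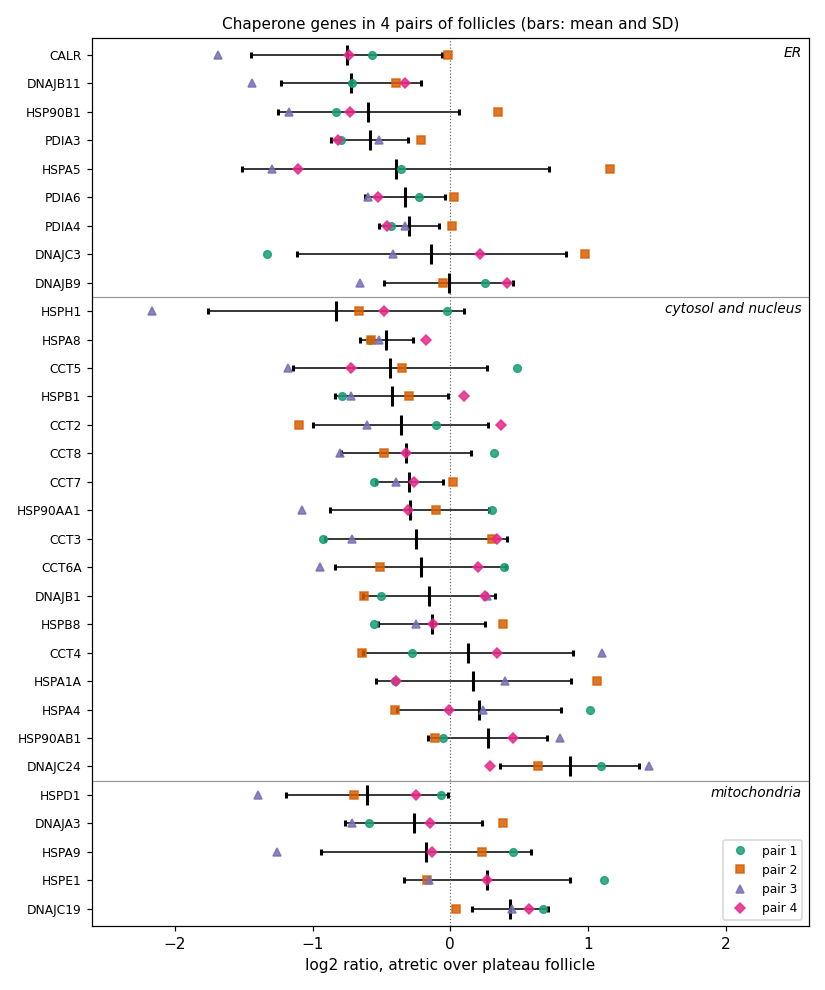
Log2 ratio of atretic over plateau in each of the 4 pairs (coloured symbols) for 31 chaperone genes, ordered by mean within the ER, the cytosol and nucleus, and the mitochondria, with black bars for the mean and SD. Pair 2 lies to the right for HSPA5 (1.16) and HSP90B1 (0.35), and pair 3 to the left for HSPH1 (-2.17), HSPD1 (-1.39) and CALR (-1.68).

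None of the 9 mitochondrial members passed, with 0 lower and 0 higher, and 0 of 12 further mitochondrial chaperone and protease genes did. Of all genes 2.96% were lower and 2.42% higher, so lists this short can hold 0 without differing from all genes. HSPD1 (Hsp60) and HSPE1 (Hsp10) form one chaperonin and lie next to each other in the cattle gene table. HSPD1 read 14.16, 12.00, 12.59 and 13.61 in atretic follicles, against 14.23, 12.70, 13.99 and 13.86 in plateau follicles. HSPE1 read 12.54, 11.01, 11.75 and 12.01 in atretic follicles, against 11.42, 11.18, 11.90 and 11.75 in plateau follicles. The mean log2 ratio was -0.60 ± 0.59 for HSPD1 and 0.26 ± 0.60 for HSPE1, and HSPE1 exceeded HSPD1 in each pair, by 1.18, 0.53, 1.24 and 0.52. This difference was noticed in the data and was not tested. The second, dimmer HSPD1 probe averaged -0.07. Without pair 3 HSPD1 averaged -0.34. It passed without pair 1 (-0.78) and in the replicate block fit (adjusted p = 0.261 in limma). Mortalin (HSPA9), the mitochondrial Hsp70, was at -0.18 ± 0.76, and at 0.18 without pair 3.

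The J proteins of the mitochondrial import motor had means above 0. DNAJC19 read 9.51, 8.78, 9.35 and 9.36 in atretic follicles, against 8.84, 8.74, 8.91 and 8.79 in plateau follicles. In 3 pairs the atretic follicle was above all plateau follicles and in pair 2 it was level with its partner. Its mean was 0.43 ± 0.28 (adjusted p = 0.627). The 5 probes of its relative DNAJC15 all had means above 0, between 0.32 and 0.54, and the brightest had ratios of 0.25, 0.62, -0.27 and 0.79. DNAJA3, the partner of HSPA9, was at -0.27 ± 0.50, and its 3 probes ranged from -0.58 to -0.0021.

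The dye orientations gave 52 of 76 members the same sign (68.4%, against 60.1% of all genes). The ER calls held in sign on both: CALR was at -0.84 on slide 205 and -0.66 on slide 206, DNAJB11 at -0.78 and -0.66, and PDIA3 at -0.72 and -0.45. DNAJB1 (Hsp40), the heat-inducible J protein, was at -0.93 on slide 205 and 0.62 on slide 206, so its mean of -0.15 joins opposite readings. HSPB1 was at -0.80 and -0.05 and DNAJC24 at 1.10 and 0.63. Dye and slide cannot be told apart here. Of 21 members with several measured probes, 16 had 1 sign over all of them.

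**Figure D5:**
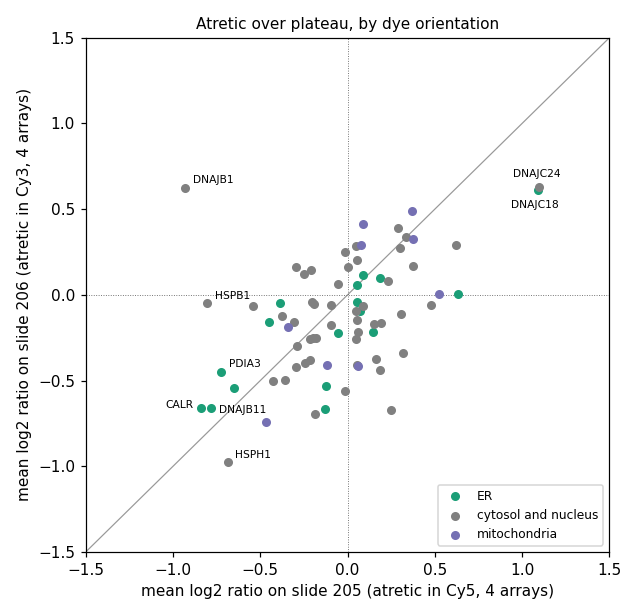
Mean log2 ratio (atretic over plateau) of the 76 members on slide 205, where the atretic RNA carried Cy5, against slide 206, where it carried Cy3. Points near the diagonal read alike with both dyes, as CALR and DNAJB11 do, while DNAJB1 is at -0.93 and 0.62.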

How the data were processed

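RNA of granulosa cells had been amplified, labelled and hybridised to EmbryoGENE arrays, and the authors deposited the median intensity of each spot in both channels, together with its local background. A table of normalized log2 ratios, also deposited, had column medians of -0.0289 to -0.0054. Its columns correlated at 0.996 to 0.9998 with Cy5 over Cy3 of the spot files, and it served as an alternative.

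Background was corrected by normexp with an offset of 50. Loess (span 0.3, weight 0 for control and marked spots) was applied to each array and quantile normalization between arrays, in limma 3.58.1 (R 4.3.3, statmod 1.5.0). Ratios were turned to atretic over plateau and averaged over equal Area numbers, which the correlations of the deposited arrays pair. Of 43794 gene probes, 21790 had a symbol. The 34021 probes at a mean log2 intensity of 7 or more were tested with lmFit and eBayes and adjusted by Benjamini and Hochberg. Follicle levels are channel intensities averaged over 2 arrays. Marker sums are of unlogged values. Median spot intensities were 163 to 285 in Cy5 and 206 to 376 in Cy3, and the number of pairs limits the precision.

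Members and gene lists were chosen with earlier results of these data known. Genes named are members past the threshold, a list of core chaperones, up to 3 members per compartment with the largest change of 1 sign in all pairs, and pathway genes past the threshold. Others were named after their values were seen. Sequences were not used here. Alternatives changed background, normalization, filters, dye swaps, pairing, slide, variance model, probe, fold, symbols and each pair left out. The steps were tested on simulated data. Figures used Python 3.11.15 and matplotlib 3.10.9.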

Additional observations from a re-analysis of the deposited data

Results flagged for a closer look

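Among 97 groups of 4 values (the atretic levels, the plateau levels and the log2 ratios of 31 chaperone genes, and the medians by pair), 7 had a highest or lowest value far from the others by Dixon's test, and chance gives about 1 in 20. Of these, 4 were low levels in the plateau follicle of pair 2. HSP90B1 was at 10.95 there, against 12.82 to 13.17 in the other plateau follicles. PDIA4 was at 7.60, against 8.18 to 8.26, PDIA6 at 15.71, against 15.97 to 16.00, and DNAJA3, a mitochondrial J protein, at 11.31, against 12.23 to 12.28. CCT2, a chaperonin subunit, was low in the plateau follicle of pair 4 at 13.57, against 13.84 to 13.89. DNAJB1 was low in the atretic follicle of pair 1 at 9.85, against 10.06 to 10.07 in the other atretic follicles. The log2 ratio of HSPA8 was -0.18 in pair 4, against -0.59 to -0.52 in the other pairs.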

How the results depend on the processing

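Counts of members lower and higher in atretic follicles were 3 and 1. They were 6 and 2 with the pair as a replicate block, with or without a dye term, 6 and 2 on slide 205 alone, 6 and 1 on slide 206 alone, and 1 (HSPH1) and 1 with no replicate block, when the follicles were set against each other unpaired. A fold of 2 gave 0 and 0, while 0 were higher among probes above the negative controls and with a gene read by the mean of its probes, since the other DNAJC24 probe averaged 0.11. Leaving out 1 pair gave 1 to 6 lower and 1 to 2 higher. The call of PDIA3 was also lost on slide 206 (-0.45), with local background subtracted (-0.58), with no background correction (-0.57), with the deposited ratios (-0.57) and with a trend and robust variance. Other normalization and intensity settings kept the 3 genes, and HSPD1 was added by loess alone (-0.68), Aquantile (-0.68) and no intensity filter (-0.60). On slide 206 DNAJC24 lost its call (0.63) and DNAJB1 turned to 0.62. The median of ER members was between -0.41 and -0.10 with a pair left out. The mitochondrial median was 0.0057 on slide 206 and between -0.0857 and 0.203 with a pair left out, below 0 without pair 1 or pair 2. Causes were not tested. Adjusted p stayed above 0.05 for all members under every setting tried, with 59 of 76 members above the negative controls on all arrays.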
